A study of Caenorhabditis elegans with 16 samples.

Results

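The response of control worms to copper was measured in 8 of 16 libraries made from whole Caenorhabditis elegans. The 8 libraries were taken by their labels alone: 4 from control worms grown with 100 µM CuCl2 and 4 from control worms grown with no added agent. All worms were synchronised and spent 3 days at 20 °C on agar plates (NGM) seeded with Escherichia coli OP50. The remaining 8 libraries came from cua-1(H828Q) worms, with and without the same dose, and served here to estimate the spread between libraries and to ask whether a response depended on genotype. The control strain, the sex and the stage at harvest are not given in the sources used here. The labels call the 4 libraries of a group biological replicates. The gene tests used a spread estimated over all 16 libraries, those of cua-1(H828Q) worms included, and not over the control libraries alone.

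Copper is a cofactor of enzymes such as cytochrome c oxidase, superoxide dismutase and tyrosinases, and free copper ions damage proteins and lipids. In worms, the transporter CHCA-1 takes up copper, the chaperone CUC-1 carries it, and the ATPase CUA-1, the homolog of the human Menkes and Wilson disease pumps, moves it into the secretory pathway and out of intestinal cells. The intestine and the epidermis face the medium and also make the lysozymes, saposin-like proteins, lectins and small peptides of the worm's defence, which respond to toxic agents as well as to microbes.

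Read counts near the 3′ end of transcripts were summed per gene, with 1891008 to 4001750 counts in each control library. Levels are given as CPM, read counts scaled for library size with TMM factors, for replicates 1 to 4 in turn. Fold changes are log2 values, copper over untreated, with the model's standard error after ±. A gene was called where edgeR's quasi-likelihood test over all 16 libraries gave a Benjamini-Hochberg adjusted p under 0.05 among the 9787 genes tested. Adjusted p-values below come from that test unless another fit, a left-out library or the difference between genotypes is named. A whole worm is a bulk sample, in which fewer cells of a type and less RNA per cell cannot be told apart.

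The libraries differed in how they covered long transcripts, so this was checked first. For each library, the median log2 CPM of genes under 800 bp was subtracted from that of genes over 3000 bp. The balance was -0.87, 0.97, 0.94 and 1.08 in the copper-treated libraries, against -2.16, 0.62, -0.96 and -0.64 in the untreated libraries. Copper replicate 1 and untreated replicates 1, 3 and 4 were therefore poor in long transcripts, and the group ranges overlapped. The mean difference was 1.32, with means of 0.53 ± 0.935 in copper-treated worms and -0.79 ± 1.14 in untreated worms (SD, n = 4 each), and an exact two-sided permutation test over 70 regroupings gave p = 0.0857, where 0.0286 is the smallest p that this design allows. Leaving out 1 library moved the difference to between 0.859 and 1.79, the lowest value without untreated replicate 1. With classes set at 2000 and 1000 bp it was 1.05 (exact permutation p = 0.0857).

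**Figure D1:**
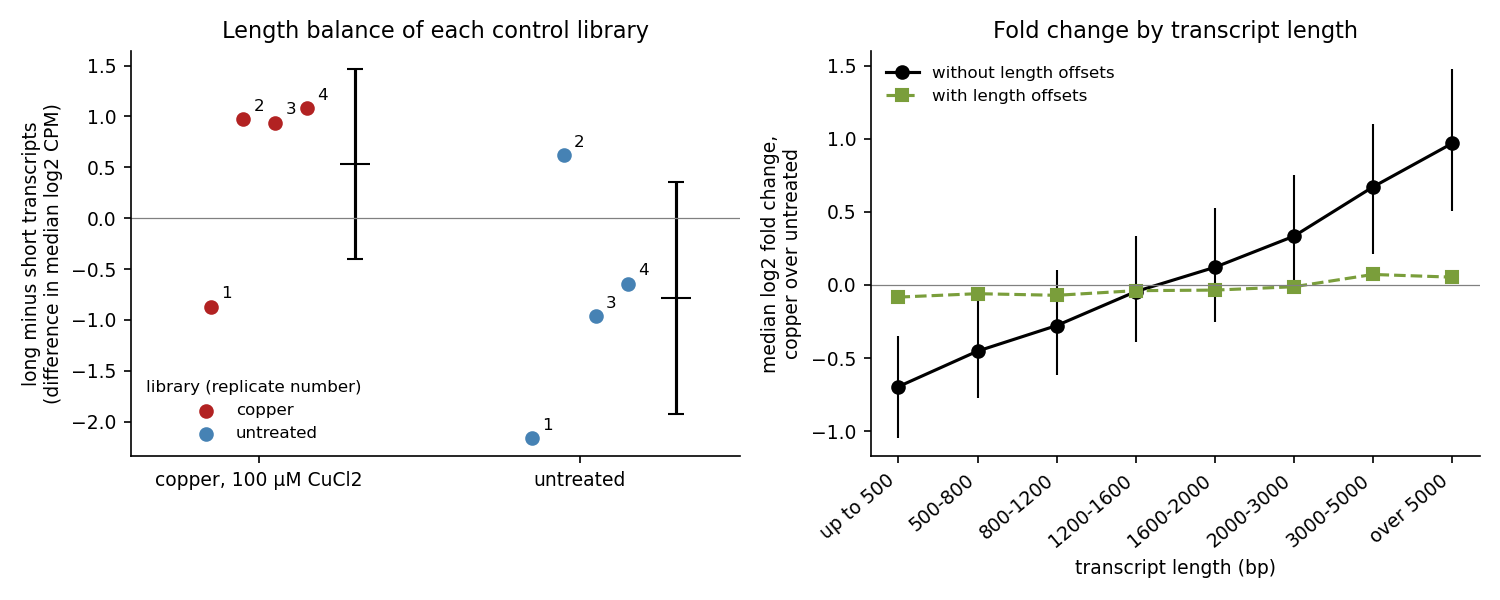
Left, the length balance of each control library (points, with replicate numbers; the bar beside each group is the mean with the SD of 4 libraries): copper replicate 1 (-0.87) lies among the untreated libraries and untreated replicate 2 (0.62) near the copper-treated ones. Right, the median log2 fold change of genes in 8 classes of transcript length without length offsets (black; lines join the lower and upper quartiles) and with them (green). The black medians climb from -0.70 in the shortest class to 0.97 in the longest, and the green ones lie between -0.08 and 0.07.

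The imbalance ran through the fold changes of ordinary genes. The median log2 fold change was -0.70 for the 829 genes up to 500 bp, -0.28 for the 1897 genes of 800 to 1200 bp, 0.33 for the 1508 genes of 2000 to 3000 bp and 0.97 for the 286 genes over 5000 bp, beside -0.05 for all genes. When offsets took a lowess curve of level against transcript length out of each library, the same classes had medians of -0.08, -0.07, -0.01 and 0.05. Values with these offsets are given below for named genes whose call they change. Values within each kind of library compare copper replicates 2 to 4 with untreated replicate 2 (libraries rich in long transcripts), and copper replicate 1 with untreated replicates 1, 3 and 4 (libraries poor in them). The former are fold changes of an edgeR fit. The latter are plain differences of mean log2 CPM, without a test, so the values are not the same measure.

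The 5 longest transcripts among abundant genes (a mean level over all 16 libraries of 6 or more on the log2 CPM scale) varied in their dependence on the library. The dynein heavy chain gene dhc-1, with a transcript of 13864 bp, stood at 13.2, 102, 112 and 114 CPM on copper, against 8.72, 74.1, 9.7 and 6.74 CPM without, a difference of 1.75 ± 0.80 that was not called (adjusted p = 0.253) and was 0.61 with offsets. Its levels were low in the 4 libraries poor in long transcripts and high in the other 4, in both groups. Without untreated replicate 2 it was called (adjusted p = 0.0263). The ankyrin gene unc-44 (21716 bp), by contrast, stood at 53.4, 55.2, 52.1 and 61.8 CPM on copper, against 68.4, 43, 59.5 and 52.8 CPM without. Neither unc-44 nor the genes eel-1, frm-1 and ret-1 (fold changes of -0.01, 0.85, 0.47 and 0.04) was called, at adjusted p from 0.361 to 0.987, and with offsets all 4 values were below 0 (-1.40, -0.42, -0.72 and -0.95).

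On copper, 174 genes changed in control worms, 1.78% of those tested. Of these, 45 rose (0.46% of genes tested) and 129 fell (1.32%), and 1870 genes had an unadjusted p under 0.05. With the length offsets 189 genes were called (1.93%), 63 higher (0.644%) and 126 lower (1.29%). Both fits called 39 of the risers (0.398%) and 104 of the fallers (1.06%), and these 143 genes are 1.46% of those tested. The 4 copper-treated and 4 untreated libraries did not overlap for 44 of the 45 called risers and 77 of the 129 called fallers, where 4.62% of all genes tested had no overlap (2.3% with copper higher and 2.32% with copper lower).

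The number of calls depended on which libraries entered the fit. It was 73, 57 and 44 without copper replicates 2, 3 and 4, 275 without copper replicate 1, 59, 884 and 421 without untreated replicates 1, 2 and 4, and 13 (9 higher and 4 lower) when the 8 control libraries were fitted alone. The share of risers also moved: 25.9% of the 174 calls, 44% with the length balance as a covariate (48 higher and 61 lower) and 49.6% without the libraries poor in long transcripts (468 calls, 4.78% of genes; 232 higher, 2.37%, and 236 lower, 2.41%), a fit in which untreated replicate 2 stands alone for its group. A core of 40 called genes, 16 higher and 24 lower, passed in every fit that left out 1 control library. Each of those fits kept the 8 libraries of cua-1(H828Q) worms.

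**Figure D2:**
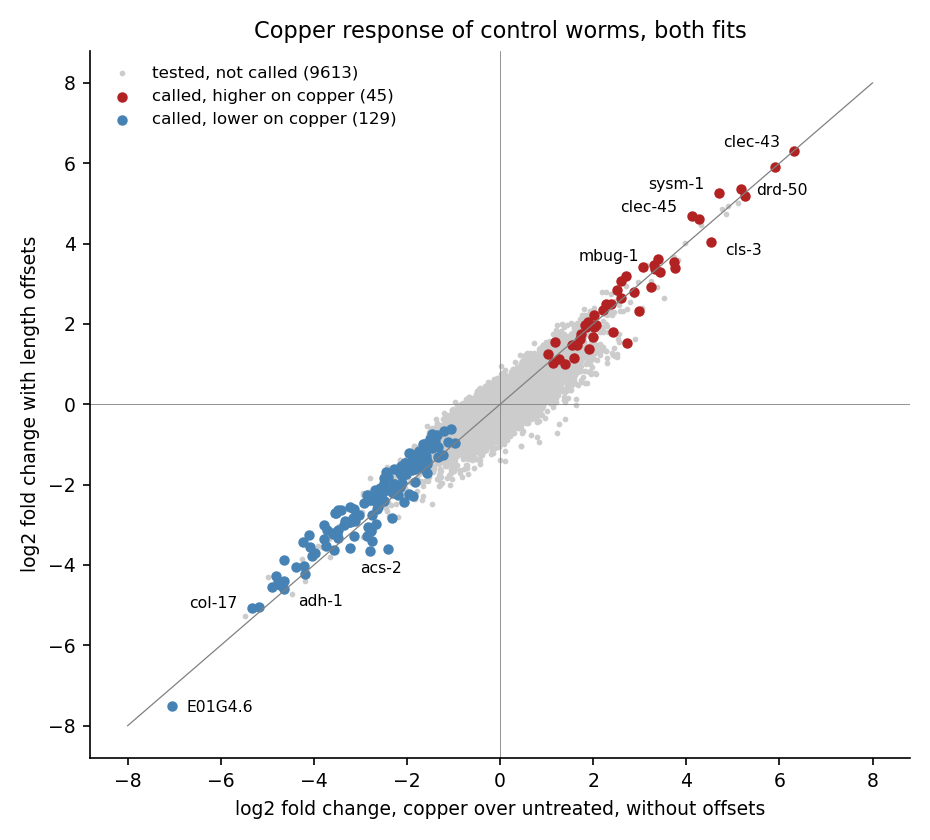
Each point is 1 of the 9787 genes tested, by its log2 fold change (copper over untreated control worms) without length offsets (horizontal) and with them (vertical); the diagonal marks equal values and coloured points are the 45 genes called higher and the 129 called lower without offsets. All 174 have the same sign on both axes, and 143 of them were called in both fits.

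The description of single genes begins with those called in both fits whose groups did not overlap and whose mean level over all 16 libraries, mutant ones included, was 2 or more on the log2 CPM scale. The strongest rise among them was that of sysm-1 (T24B8.5; chromosome II, 9082626 to 9083193, minus strand, WBcel235), a small secreted-peptide gene widely used as a readout of the p38 MAPK defence pathway. It stood at 220, 128, 128 and 148 CPM in copper-treated worms, against 9.18, 2.49, 8.38 and 3.93 CPM in untreated worms. Every copper-treated library was far above every untreated one, with a rise of 4.71 ± 0.43 (adjusted p = 1.76e-05). The value was 5.70 in the libraries rich in long transcripts and 4.91 in those poor in them, and the call held without each of the 8 control libraries in turn.

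The gene mbug-1 (F55G11.4; chromosome IV, 12973624 to 12975603, plus strand), one of a cluster of infection-responsive genes, rose by 3.30 ± 0.27 (adjusted p = 7.38e-06). Its levels were 118, 119, 112 and 118 CPM on copper, against 12.9, 10.3, 7.49 and 16.9 CPM without, so the copper-treated libraries hardly varied among themselves. The uncharacterised gene C14C6.5 (chromosome V, 536628 to 537418) reached 261, 199, 194 and 182 CPM on copper, against 47.7, 21.2, 37.5 and 31.5 CPM without, a rise of 2.60 ± 0.25 (adjusted p = 2.40e-05). For both genes the groups were well apart in every library, and both calls held without each library in turn.

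Other risers had few or no counts in untreated worms. The C-type lectin gene clec-45, which encodes a small carbohydrate-binding protein, stood at 10.7, 13.3, 12.5 and 11.2 CPM on copper, against 2.75, 0, 0 and 0 CPM without (4.12 ± 0.69, adjusted p = 0.00551). The value for untreated replicate 1 was the only one above 0 in its group. The gene drd-50, chosen after its values were seen and named for its fall under dietary restriction, had 108 counts over the copper-treated libraries, against 2 counts over the untreated ones, a ratio of 41.6 with an exact 95% counting interval of 11.2 to 348. Its fold change was 5.18, above that of sysm-1, but its mean level over all 16 libraries (1.87 on the log2 CPM scale) missed the bound of 2. The lectin gene clec-43 had 36 counts on copper, against 0 without, at least 9.24-fold higher when 3 counts are allowed for the untreated group. Such intervals and bounds cover counting error only.

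The other large rises were in genes of mixed kinds. The O-acyltransferase-like gene oac-20 rose by 3.24 ± 0.41, with 16.4, 14.8, 18.6 and 13.5 CPM on copper, against 1.84, 0.934, 1.32 and 2.81 CPM without (adjusted p = 0.000441). The uncharacterised Y105C5B.15 rose by 2.59 ± 0.30, with 24.9, 23.8, 28.4 and 40.1 CPM on copper, against 2.75, 4.98, 6.61 and 5.06 CPM without (adjusted p = 0.000244). For both genes the groups did not overlap. The neighbouring genes F01D5.5 and F01D5.1 on chromosome II rose by 3.07 ± 0.44 and 2.70 ± 0.66.

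Among the longer transcripts, cls-3, of the CLASP family of microtubule-binding proteins, rose by 4.53 ± 0.86 (adjusted p = 0.0124). It had 3.2, 15.7, 17.9 and 13.2 CPM on copper, against 0, 1.56, 0 and 0 CPM without, and copper replicate 1, the library poor in long transcripts, was the lowest of its group. The aminopeptidase-like gene AC3.5 also had copper replicate 1 as the lowest of its group, with 6.05, 22.4, 25 and 31 CPM on copper, against 2.3, 3.11, 1.76 and 3.37 CPM without. Its fold change of 2.99 ± 0.59 was 3.03 in the libraries rich in long transcripts and 1.15 in those poor in them. The carboxylesterase gene cest-10 and the uncharacterised C41A3.2 each had 59 counts on copper, against 3 counts without, a ratio of 15.1 (exact 95% interval 4.94 to 75.6).

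Leaving out 1 library ended the calls of some of these genes. The call of cls-3 was lost without untreated replicate 1 (adjusted p = 0.0512) and that of AC3.5 without copper replicate 4 (0.0669) or untreated replicate 1 (0.0663). The calls of F01D5.1, C41A3.2, cest-10 and clec-43 were lost without copper replicate 2 (adjusted p = 0.0989, 0.0782, 0.0751 and 0.056), 3 (0.11, 0.122, 0.0795 and 0.0794) or 4 (0.0907, 0.133, 0.148 and 0.0704). In addition, F01D5.1 lost its call without copper replicate 1 (0.055) or untreated replicates 3 (0.129) and 4 (0.061). C41A3.2 lost it without untreated replicates 1 (0.145), 3 (0.0941) and 4 (0.0508), cest-10 without 1 (0.141) and 3 (0.102), and clec-43 without 1 (0.0669).

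**Figure D3:**
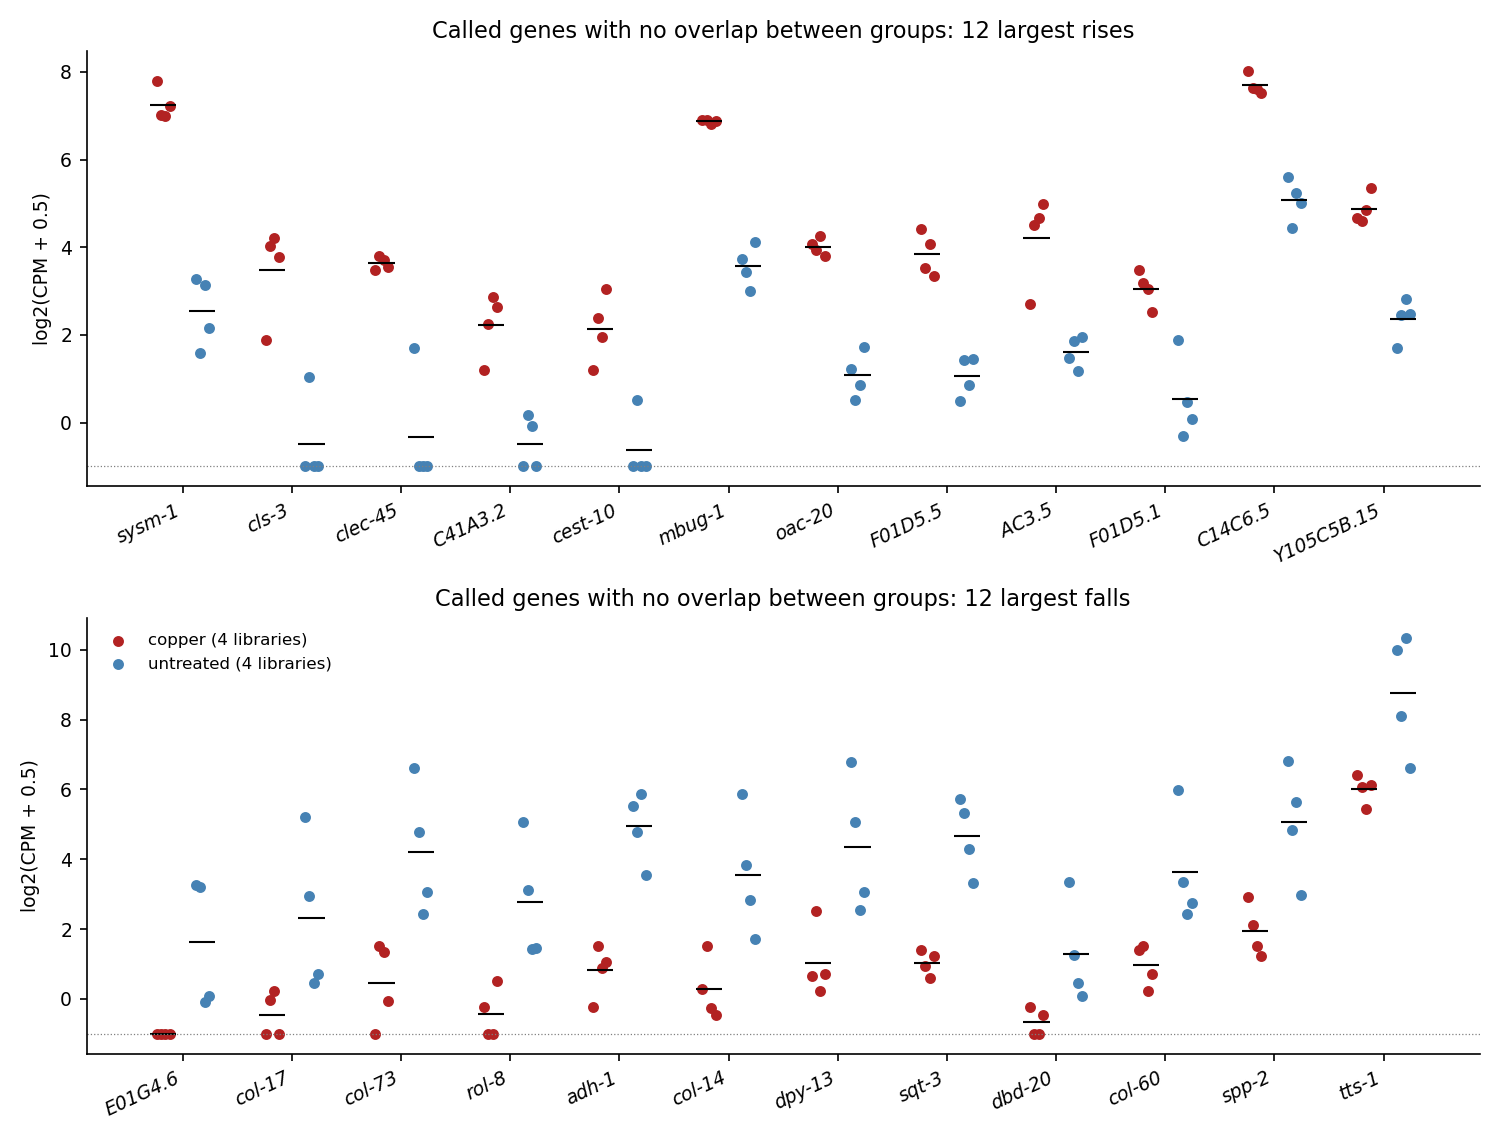
Levels, as log2(CPM + 0.5), in each of the 4 copper-treated and 4 untreated control libraries for the 12 largest rises (top) and the 12 largest falls (bottom) among genes called in both fits whose groups did not overlap and whose mean log2 CPM over all 16 libraries was 2 or more, with a dotted line at 0 counts. By that choice the copper-treated points lie above the untreated ones for each riser and below them for each faller. The untreated values of tts-1 spread widest in CPM, from 98.3 to 1295.

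Defence genes split in direction. Of 68 immune effector genes tested, 6 rose and 12 fell, against 0.46% and 1.32% of all genes, with a median log2 fold change of -0.77 beside -0.05 for all genes. These transcripts are short, with a median of 468 bp, and genes up to 500 bp had a median fold change of -0.70. The list median was -0.36 with offsets, -0.15 without the libraries poor in long transcripts and -0.39 without untreated replicate 1. The risers, besides sysm-1 and mbug-1, were the lysozyme gene lys-7 and the infection response genes irg-4, irg-5 and C17H12.8. Lysozymes break down bacterial cell walls. The gene lys-7 stood at 256, 199, 211 and 214 CPM on copper, against 25.7, 36.4, 70.5 and 48.9 CPM without, a rise of 2.28 ± 0.29 (adjusted p = 0.000471) with no overlap.

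The genes irg-4, irg-5 and C17H12.8 encode proteins with a CUB-like domain. The activity of the p38 pathway, of which sysm-1 is used as a readout, was not tested. For irg-5 the levels were 6.77, 8.57, 11.5 and 6.84 CPM on copper, against 2.75, 1.87, 1.32 and 1.12 CPM without (2.20 ± 0.41, adjusted p = 0.0109). For irg-4, chosen with C17H12.8 after the values were seen, they were 16.4, 33.3, 22.3 and 27.6 CPM on copper, against 0.918, 8.1, 4.85 and 4.49 CPM without (2.38 ± 0.47). C17H12.8 stood at 75.8, 83.3, 86.2 and 90.3 CPM on copper, against 26.6, 32.7, 20.3 and 10.1 CPM without (1.89 ± 0.38). All 3 were higher in every copper-treated library. The call of irg-4 was lost without copper replicate 4 (adjusted p = 0.0584), and that of C17H12.8 without copper replicate 3 (0.0527) or 4 (0.0609) and in the libraries rich in long transcripts (1.36, adjusted p = 0.237).

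The 12 immune effectors that fell were 3 lysozymes, 4 saposin-like proteins, the caenacin cnc-4 and 4 neuropeptide-like antimicrobial peptides. The lysozyme gene lys-4 fell by 1.90 ± 0.33 (adjusted p = 0.00633), with 270, 177, 209 and 169 CPM on copper, against 1320, 450, 920 and 394 CPM without. Its neighbours lys-5 and lys-6, chosen after their values were seen, fell by 2.93 ± 0.53 and 2.15 ± 0.37. All 3 were lower in every copper-treated library, in the direction opposite to lys-7, and kept their calls without each library in turn. In the fit of the 8 control libraries alone, 0 immune effectors were called lower and 3 higher.

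Saposin-like proteins permeabilise bacterial membranes, and spp-2 was among the genes with the largest falls. It stood at 7.12, 3.81, 2.37 and 1.82 CPM on copper, against 112, 28, 48.9 and 7.3 CPM without, and fell by 3.72 ± 0.65 (adjusted p = 0.00721). The antimicrobial peptide gene cnc-4 fell by 2.84 ± 0.44 (adjusted p = 0.00327), with 2.49, 2.38, 4.06 and 2.96 CPM on copper, against 28.9, 18.1, 32.2 and 7.3 CPM without. In both genes the groups did not overlap, and untreated replicate 4 was the lowest of its group.

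The remaining fallers of the immune list were less secure and were chosen after their values were seen. The epidermal peptide genes nlp-28, nlp-29, nlp-31 and nlp-33 fell by 1.42 to 2.04. None was called with length offsets, where their fold changes were -1.16, -1.33, -1.47 and -0.78 (adjusted p = 0.1005, 0.147, 0.0852 and 0.0834), and their transcripts are 335 to 451 bp long. The same held for spp-22 and spp-1 (-1.32 and -0.67 with offsets), while spp-4 stayed lower at -0.99 (adjusted p = 0.0127). With offsets, 10 immune effectors were called higher and 6 lower.

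Those weaker calls also depended on single libraries. Without copper replicate 3 or 4 or untreated replicate 1, nlp-28, nlp-29, nlp-31, nlp-33, spp-1, spp-4 and spp-22 all lost their calls, at adjusted p of 0.0577 to 0.148. Without copper replicate 2, nlp-28, nlp-29, nlp-31, spp-1 and spp-4 lost theirs (0.072, 0.0654, 0.0534, 0.12 and 0.0782), and without untreated replicate 3 so did these 5 and spp-22 (0.0763, 0.0856, 0.0658, 0.136, 0.052 and 0.106). The call of spp-1 was also lost without copper replicate 1 (0.05005) or untreated replicate 4 (0.0584), and its fold change was 0.0019 in the libraries rich in long transcripts. The number of immune effectors called lower was 7, 5 and 5 without copper replicates 2, 3 and 4, and 5, 22 and 6 without untreated replicates 1, 2 and 3.

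C-type lectins, a large family of secreted carbohydrate-binding proteins, gave 3 risers (clec-41, clec-43 and clec-45) and 4 fallers among 58 tested. Of all genes tested, 0.46% rose and 1.32% fell. The list median was -0.40, beside -0.05 for all genes, with -0.34 after offsets and 0.03 without the libraries poor in long transcripts. The most abundant riser, clec-41, stood at 235, 189, 158 and 179 CPM on copper, against 54.2, 17.1, 34.4 and 37.6 CPM without (2.42 ± 0.29, adjusted p = 0.000258). Among the fallers, clec-52 stood at 2.14, 2.38, 3.04 and 1.82 CPM on copper, against 20.2, 5.92, 15.4 and 8.43 CPM without (-2.40 ± 0.37, adjusted p = 0.00327). The groups of both genes were apart, in opposite directions. The number of lectins called lower was 1 without copper replicate 2, 3 or 4 or untreated replicate 1 or 3, 8 without untreated replicate 2 and 7 without untreated replicate 4, where 5 were called higher.

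**Figure D4:**
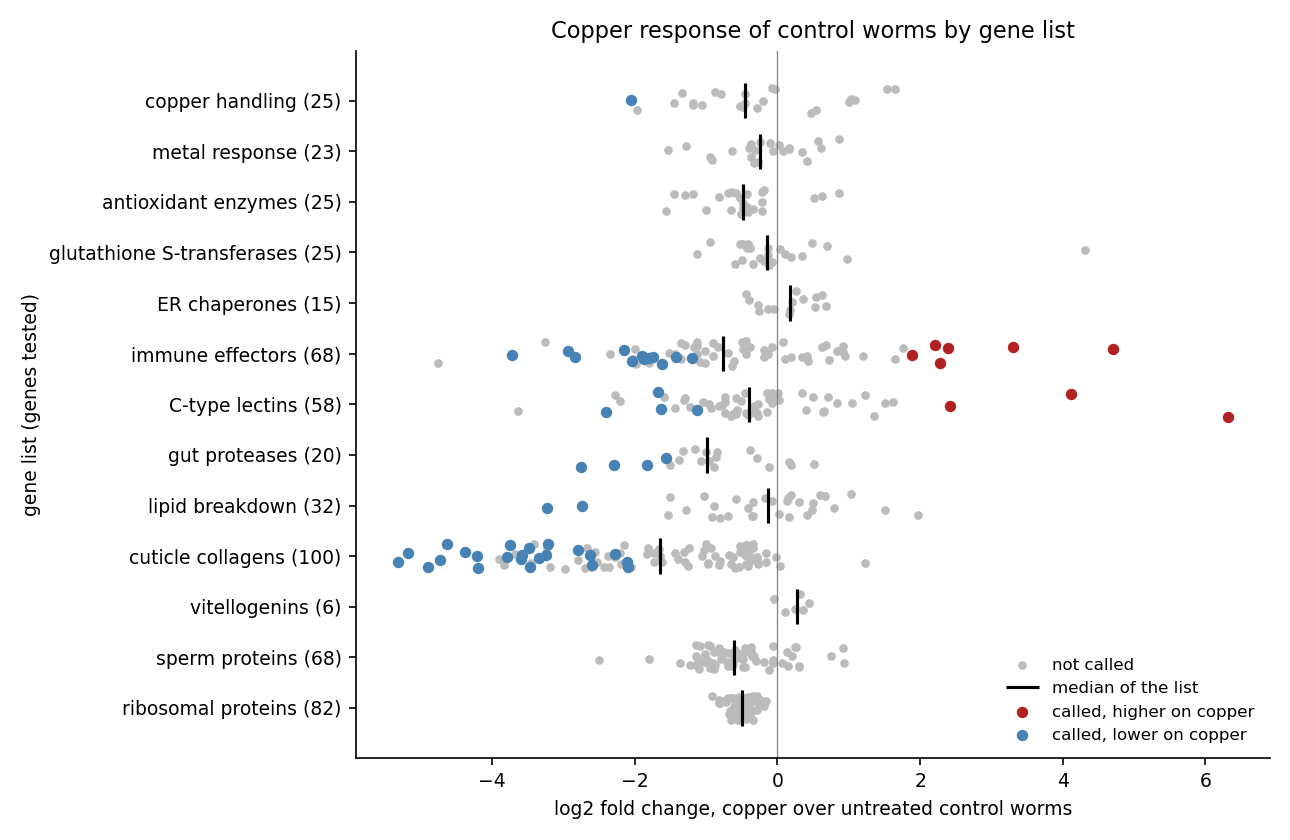
Log2 fold change (copper over untreated control worms) of every tested member of 13 gene lists, with the number tested in brackets and the median as a vertical bar. Called members lie on both sides of 0 among immune effectors (6 higher and 12 lower) and C-type lectins (3 and 4), and on the lower side alone for cuticle collagens (23 of 100). Of all genes tested, 0.46% were called higher and 1.32% lower.

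Cuticle collagens form the exoskeleton and are made in bursts before each molt. Of 100 tested, 23 fell and 0 rose in edgeR's test, beside 1.32% and 0.46% of all genes tested. The list median was -1.65, beside -0.05 for all genes, with -1.43 after offsets (23 lower again) and -0.62 without untreated replicate 1. At an unadjusted p under 0.05 the counts were 55 lower and 0 higher, and DESeq2 gave 40 and 0. For 11 of the 23 the groups did not overlap, where 2.32% of all genes tested had no overlap with copper lower. The largest falls among these 11 were those of col-17, col-73, rol-8, col-14, dpy-13, sqt-3 and col-60.

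Mutations of sqt-3, dpy-13 and rol-8 change body shape. The gene sqt-3 (chromosome V, 12352745 to 12354320, plus strand) fell by 4.20 ± 0.54 (adjusted p = 0.000471), with 2.14, 1.43, 1.01 and 1.82 CPM on copper, against 52.3, 39.9, 19 and 9.55 CPM without. Its groups did not overlap, and its call held without each library in turn. For dpy-13 the levels were 1.07, 5.24, 0.676 and 1.14 CPM on copper, against 109, 32.7, 5.29 and 7.86 CPM without (-4.38 ± 0.83, adjusted p = 0.0127). The untreated libraries of dpy-13 were thus widely spread, and replicate 3 (5.29 CPM) was next to the highest copper-treated value (5.24 CPM).

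That pattern was general among the called collagens. Their summed level was 136, 158, 95.7 and 86.2 CPM in the copper-treated libraries, against 2261, 524, 315 and 310 CPM in the untreated libraries. Untreated replicate 1 held the highest untreated value for 22 of the 23 genes, and replicate 3 the lowest for 15. Untreated replicate 1 was also the library with the lowest length balance and the lowest summed vitellogenin level (9993 CPM, against 20156 to 22675 CPM in the other untreated libraries). The part of either in the collagen result was not tested. For all 23, every copper-treated library was below untreated replicate 2, a library rich in long transcripts.

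The number of collagens called lower was 7 without untreated replicate 1, 10 without copper replicate 2, 3 without copper replicate 3 and 1 without copper replicate 4. It was 44, 32 and 37 without untreated replicates 2, 3 and 4. With the length balance as a covariate 2 were lower, limma-voom called 1, and without the libraries poor in long transcripts 26 were lower and 10 higher, with a median of -0.39. Without copper replicate 4, col-73 and col-14 had adjusted p of 0.0541 and 0.0584; col-60 and dpy-13 lost their calls there (0.0832 and 0.0704) and without copper replicate 3 (0.0749 and 0.0638). Those of col-17 and rol-8 were lost without copper replicates 2 (0.0633 and 0.0588), 3 (0.0678 and 0.0794) and 4 (0.118 and 0.0503) and untreated replicate 1 (0.0924 and 0.0739). Collagen genes resemble each other closely, so reads may have been shared among them in the authors' counting.

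**Figure D5:**
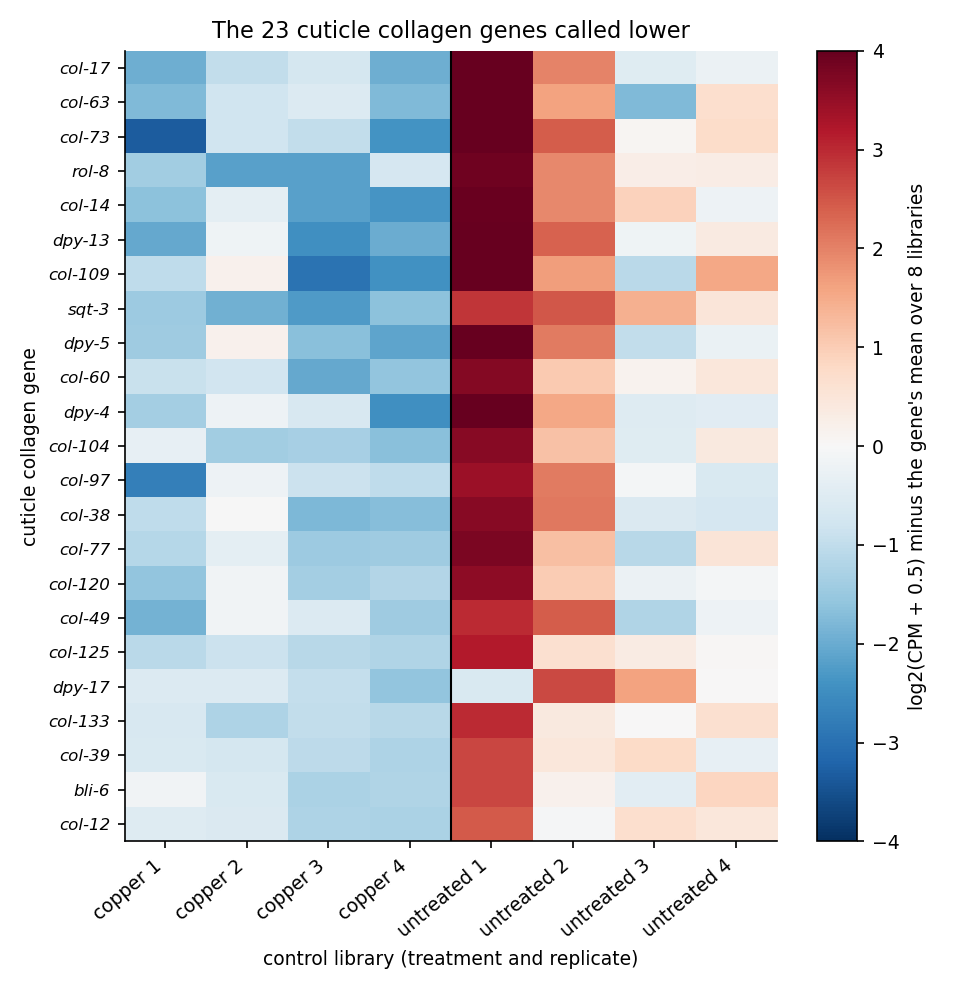
Level of the 23 cuticle collagen genes called lower, as log2(CPM + 0.5) minus the gene's mean over the 8 control libraries, ordered by fold change; colours saturate at -4 and 4. Untreated replicate 1 holds the highest value (red) for 22 of the 23 genes, dpy-17 being the exception, and the copper-treated libraries lie below the mean (blue) but for copper replicate 2 in col-109 and dpy-5.

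Genes of molting, which include regulators and enzymes of cuticle renewal, gave no call without offsets, beside 1.78% of all genes called. Of 29 tested, edgeR called 0, with a median of 0.08, 2 higher and 3 lower at an unadjusted p under 0.05, and 0 higher and 2 lower in DESeq2. The closest to the threshold were grl-16 (-4.20, adjusted p = 0.0501), a hedgehog-related gene, and mlt-8 (-2.54, adjusted p = 0.0606). For grl-16 the levels were 0, 0.952, 0.338 and 0.456 CPM on copper, against 26.2, 4.98, 0 and 1.69 CPM without, and untreated replicate 3 overlapped the copper-treated libraries. With offsets grl-16 was called lower (-4.40, adjusted p = 0.0415). It was also called without untreated replicate 2, 3 or 4 (adjusted p = 0.0292, 0.013 and 0.0204), and mlt-8 without 2 or 4 (0.0467 and 0.0171). Those fits called 2, 1 and 3 molting genes lower, and 1 higher without replicate 2 or 4. With offsets 1 was lower and the median was -0.03, and without the libraries poor in long transcripts 4 were higher and 3 lower.

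Some digestive protease genes of the gut fell. Of 20 aspartyl and cysteine protease genes, 4 were lower and 0 higher, beside 1.32% and 0.46% of all genes tested. By DESeq2, limma-voom and an unadjusted p under 0.05 the counts were 0 higher, and 10, 1 and 14 lower. The list median was -0.99, with -1.001 after offsets and -0.31 without the libraries poor in long transcripts. The aspartyl protease gene asp-12 fell by 2.76 ± 0.27 (adjusted p = 2.40e-05), with 19.6, 19, 18.6 and 16.4 CPM on copper, against 161, 107, 165 and 65.7 CPM without. The copper-treated values were nearly equal and all below the untreated ones, within both kinds of library (-2.62 and -2.58).

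The cathepsin B genes cpr-1 and cpr-4 are expressed in the gut. For cpr-1 the levels were 390, 306, 303 and 261 CPM on copper, against 1741, 563, 1685 and 473 CPM without (-1.82 ± 0.35, adjusted p = 0.0138). For cpr-4 they were 412, 313, 296 and 226 CPM on copper, against 1294, 573, 1440 and 378 CPM without (-1.56 ± 0.33, adjusted p = 0.0239), with overlap at copper replicate 1 and untreated replicate 4. The fold change of asp-8, lower in every copper-treated library, was -2.30 ± 0.50. Without copper replicates 2, 3 and 4 the calls of cpr-1 (adjusted p = 0.0509, 0.0638 and 0.0704) and cpr-4 (0.0709, 0.0942 and 0.116) were lost, likewise without untreated replicate 1 (0.0512 and 0.0899) and, for cpr-4, untreated replicate 3 (0.0817). That of asp-8 was lost without copper replicate 2 (0.0527) or 4 (0.107) and untreated replicate 1 (0.0907) or 3 (0.07). The protease count was 1 without copper replicate 2, copper replicate 4 or untreated replicate 1, 2 without copper replicate 3 or untreated replicate 3, and 9, 13 and 10 without copper replicate 1 and untreated replicates 2 and 4.

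In a list of 27 intestinal genes 4 fell (lys-4, cpr-1, cpr-4 and spp-1) and 0 rose, beside 1.32% and 0.46% of all genes tested. DESeq2, limma-voom and an unadjusted p under 0.05 gave 0, 0 and 2 higher and 9, 1 and 13 lower. The list median was -0.60, and -0.35 after offsets. Of the 27 fold changes, 20 were negative, beside 5135 of 9787 for all genes tested. The 4 calls, all members of the immune or protease lists as well, went to 1 without copper replicate 2, 3 or 4 or untreated replicate 1, 2 without untreated replicate 3, and 9, 11 and 7 without copper replicate 1, untreated replicate 2 and untreated replicate 4, with 5 lower and 1 higher after offsets.

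Several metabolic genes fell strongly. The alcohol dehydrogenase gene adh-1 (sodh-1; chromosome V, 11888248 to 11889650) stood at 0.356, 2.38, 1.35 and 1.6 CPM on copper, against 45.9, 27.1, 58.2 and 11.2 CPM without, a fold change of -4.64 ± 0.55 (adjusted p = 0.000244). For acs-2, which activates fatty acids for mitochondrial oxidation and is induced by fasting, the level stood at 2.49, 1.43, 5.75 and 1.37 CPM on copper, against 37.6, 20.2, 39.2 and 6.74 CPM without (-3.23 ± 0.51, adjusted p = 0.00344). Both were lower in every copper-treated library, and both calls held without each library in turn. With the 8 control libraries alone, 0 lipid breakdown genes were called, so acs-2 lost its call there.

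The glyoxylate cycle gene icl-1, which turns fat carbon into sugar precursors, stood at 42, 21.4, 25.7 and 26.2 CPM on copper, against 237, 145, 357 and 36 CPM without (-2.75 ± 0.46, adjusted p = 0.00587). Untreated replicate 4 lay below copper replicate 1, so the groups overlapped. The genes acs-2 and icl-1 were the 2 calls among 32 lipid breakdown genes, beside 1.78% of all genes tested. The list median was -0.13, and -0.33 after offsets. None of the 32 was called higher by edgeR, DESeq2 or limma-voom. DESeq2 called 5 lower and limma-voom 1, and 9 were lower and 2 higher at an unadjusted p under 0.05. The count of 2 became 4 without copper replicate 1, 7 without untreated replicate 2 and 4 without untreated replicate 4. The gene hach-1, of valine and propionate breakdown and chosen after its values were seen, had a fold change of -1.22 ± 0.26 (adjusted p = 0.0231). It lost its call without copper replicates 2 to 4 (adjusted p = 0.0662, 0.0988 and 0.105) and untreated replicates 1 and 3 (0.0797 and 0.0562).

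The long noncoding RNA tts-1, known in long-lived worms for its binding to ribosomes, had the highest mean level of the 12 genes with the largest falls and no overlap. It stood at 84.7, 67.1, 42.9 and 70 CPM on copper, against 1009, 272, 1295 and 98.3 CPM without (-3.34 ± 0.60, adjusted p = 0.00871). The untreated libraries were widely spread, with replicate 4 next above the copper-treated ones, and the call held without each library in turn. It was lost in the fit of the 8 control libraries alone, where 0 genes of its list were called. In the list of 22 longevity-linked genes it belongs to, tts-1 and dbd-2 fell and 0 rose in edgeR's test. Of all genes tested, 1.32% fell and 0.46% rose. At an unadjusted p under 0.05 the list had 5 higher and 6 lower. DESeq2 gave 2 higher and 3 lower, limma-voom 0, and length offsets 3 higher and 1 lower. The list median was 0.16, and -0.18 after offsets. Leaving out a library moved the count of 2 to 1 without copper replicate 2, 3 or 4 or untreated replicate 1 or 3, and to 5 and 4 without untreated replicates 2 and 4. The call lost was that of dbd-2, also without copper replicate 1 (adjusted p = 0.056), with adjusted p of 0.0709, 0.107 and 0.166 without copper replicates 2, 3 and 4, and 0.152 and 0.0668 without untreated replicates 1 and 3. With offsets dbd-2 was not called either (-3.54, adjusted p = 0.0818).

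Of the other genes with the largest falls, E01G4.6 had 0 counts on copper, against 50 counts without, at least 21.6-fold lower against a floor of 3 counts over the group. Its untreated levels were 9.18, 8.72, 0.441 and 0.562 CPM, so replicates 1 and 2 held most of them. The uncharacterised gene dbd-20 had 2 counts on copper, against 30 counts without, a ratio of 0.0514 (exact 95% interval 0.00595 to 0.202). The calls of both were lost without copper replicate 2 (adjusted p = 0.0928 and 0.109), 3 (0.119 and 0.136) or 4 (0.143 and 0.142) or untreated replicate 1 (0.179 and 0.222), and that of E01G4.6 also without copper replicate 1 (0.0527).

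A few detoxification genes were called, beside 0.46% of all genes tested called higher and 1.32% called lower. Among 19 cytochrome P450 genes, cyp-34A9 (-3.14 ± 0.58) and cyp-33C8 (-1.57 ± 0.38) fell, and both were lower in every copper-treated library. For cyp-34A9 the levels were 1.42, 0.952, 2.03 and 0.456 CPM on copper, against 16.1, 10.3, 12.8 and 3.37 CPM without. Among 28 UDP-glucuronosyltransferase genes ugt-12 rose by 1.14 ± 0.28 (adjusted p = 0.0458; 1.02 with offsets, adjusted p = 0.101). Among 33 ABC transporter genes haf-7 rose by 1.59 ± 0.38 (adjusted p = 0.042; 1.14 with offsets, adjusted p = 0.135). Of 25 glutathione S-transferase genes edgeR called 0 (1 higher and 1 lower at an unadjusted p under 0.05, 1 lower in DESeq2, 0 in limma-voom), and 2 and 1 lower without untreated replicates 2 and 4. The gene gst-4, a reporter of the oxidative stress factor SKN-1, had 1.42, 2.86, 1.35 and 2.28 CPM on copper, against 1.84, 0.934, 1.76 and 6.74 CPM without.

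Nuclear hormone receptors, a large family of ligand-dependent regulators in worms, gave 1 riser and 3 fallers among 71, against 0.46% and 1.32% of all genes, with a median of -0.10 and -0.19 after offsets. The receptor gene nhr-31, known for regulating the vacuolar proton pump, stood at 14.2, 13.8, 18.3 and 14.1 CPM on copper, against 4.13, 4.36, 4.41 and 10.7 CPM without (1.39 ± 0.31, adjusted p = 0.0307; 1.01 with offsets, adjusted p = 0.106). The fallers were nhr-19 (-2.85 ± 0.55), nhr-99 (-2.64 ± 0.53) and nhr-55 (-1.33 ± 0.33), and for each of the 4 receptors the groups did not overlap, as for 4.62% of all genes. The heme transporter gene hrg-1, chosen after its values were seen, rose by 1.85 ± 0.34 (adjusted p = 0.00917), with 23.1, 20.9, 21.3 and 23 CPM on copper, against 1.84, 5.61, 6.17 and 11.2 CPM without. Its call held without each library in turn.

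The calls of receptors and detoxification genes were less stable. Without copper replicate 4, all 8 lost their calls: cyp-34A9 (adjusted p = 0.0594), cyp-33C8 (0.116), ugt-12 and haf-7 (both 0.148), nhr-31 (0.0904), nhr-19 (0.0814), nhr-99 (0.0905) and nhr-55 (0.176). Without untreated replicate 1, cyp-33C8 (0.169), ugt-12 (0.11), haf-7 (0.144), nhr-31 (0.106), nhr-19 (0.0527) and nhr-55 (0.0846) lost theirs. Without copper replicate 3, cyp-33C8 (0.0795), ugt-12 (0.0824), haf-7 (0.146), nhr-31 (0.11) and nhr-55 (0.132) lost theirs, and likewise without untreated replicate 3 (0.0587, 0.0992, 0.106, 0.0894 and 0.173). Without copper replicate 2 this held for cyp-33C8 (0.104), ugt-12 (0.145), nhr-31 (0.0633) and nhr-55 (0.0989), without copper replicate 1 for cyp-33C8 (0.0546) and nhr-55 (0.0505), and without untreated replicate 4 for ugt-12 (0.0507). Without untreated replicate 2, 5 receptors were lower, 3 ABC transporters were higher and 2 UDP-glucuronosyltransferases were higher with 1 lower. Without untreated replicate 4, 2 ABC transporters were higher.

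Genes that handle copper itself gave 1 call, where 1.78% of all genes tested were called. Of 25 tested, 1 fell and 0 rose in edgeR's test, with a median of -0.45 and -0.18 after offsets (4 higher and 7 lower at an unadjusted p under 0.05; DESeq2 called 1 in each direction and limma-voom 1 lower). The faller was tyr-1, which encodes a tyrosinase, a copper enzyme. It stood at 3.92, 6.19, 3.38 and 4.33 CPM on copper, against 27.1, 14.3, 21.6 and 10.7 CPM without (-2.06 ± 0.31, adjusted p = 0.00327), apart in all libraries and called without each library in turn. Without untreated replicate 2 the list had 3 lower and 1 higher, and without untreated replicate 4 it had 1 higher. With the 8 control libraries alone the list had 0 calls, so tyr-1 was not called there.

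The copper pump gene cua-1 stood at 11.8, 32.9, 24 and 29.6 CPM on copper, against 5.05, 22.1, 8.82 and 11.2 CPM without. The fold change of 1.03 ± 0.43 was not called (adjusted p = 0.225), the groups overlapped, and the 4 libraries poor in long transcripts held the 4 lowest values. It was 0.39 after offsets, and the gene was called without untreated replicate 2 (adjusted p = 0.0397). The chaperone gene cuc-1 had 57.3, 37.6, 34.8 and 42 CPM on copper, against 130, 50.8, 76.7 and 56.7 CPM without (-0.87 ± 0.34, adjusted p = 0.205; -0.25 with offsets). The importer gene chca-1 had 10.3, 8.57, 7.1 and 8.67 CPM on copper, against 30.8, 13.4, 12.8 and 15.7 CPM without (-1.06 ± 0.40, adjusted p = 0.2). Its groups did not overlap, though the test did not call it.

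Metal-responsive genes and metal transporters also stood below the threshold, which 1.78% of all genes tested passed. Of 23 tested, edgeR called 0, with 0 higher and 4 lower at an unadjusted p under 0.05, 2 lower in DESeq2 and 0 in limma-voom. Without copper replicate 1, untreated replicate 2 and untreated replicate 4 the counts were 2, 4 and 2 lower. The metallothionein gene mtl-2, whose protein binds copper, cadmium and zinc, had 57.7, 20.9, 23.3 and 20.8 CPM on copper, against 179, 43, 98.8 and 35.4 CPM without (-1.53 ± 0.49, adjusted p = 0.127; -0.87 with offsets). Copper replicate 1 lay above untreated replicates 2 and 4, so the groups overlapped. In the libraries rich in long transcripts mtl-2 was lower at -1.03 (adjusted p = 0.0216), and it was also called without copper replicate 1 (0.0405), untreated replicate 2 (0.0382) or untreated replicate 4 (0.0442). The cadmium-responsive cdr-2 had 7.83, 3.81, 3.72 and 6.61 CPM on copper, against 22, 10.6, 14.5 and 7.3 CPM without (-1.29 ± 0.36, adjusted p = 0.0809), and was called without untreated replicate 2 (0.0375) or 4 (0.024).

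Other classic metal genes were too low to test. The inducible metallothionein gene mtl-1 had 0 counts on copper, against 14 counts without, and numr-1 had 0 counts in all 16 libraries. No transcript length was found for numr-1, and whether its lack of counts reflects its level or the annotation was not tested. The ferritin gene ftn-1 had 11 counts on copper, against 18 counts without. The zinc exporter gene ttm-1 had a fold change of -0.64 ± 0.37 (adjusted p = 0.309), and 0.81 in the libraries rich in long transcripts; it was called without untreated replicate 2 (adjusted p = 0.0464).

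Oxidative and protein stress genes gave no call. With 1.78% of all genes called, 0 calls in lists this short is near the share over all genes. Of 25 antioxidant enzyme genes edgeR called 0 (0 higher and 7 lower at an unadjusted p under 0.05, 2 lower in DESeq2, 0 in limma-voom), with a median of -0.49 and -0.18 after offsets. Without copper replicate 1, untreated replicate 2 and untreated replicate 4, 1, 2 and 3 were lower, and 1 was higher without the last. The copper-zinc superoxide dismutase gene sod-1 had 377, 163, 190 and 175 CPM on copper, against 483, 199, 336 and 286 CPM without (-0.53 ± 0.34, adjusted p = 0.346). The glutathione synthesis gene gcs-1 had a fold change of 0.86 ± 0.43 (adjusted p = 0.275), and trx-3 and gpx-7 had -1.45 and -1.56 (adjusted p = 0.127 and 0.0647). The gene trx-3 was called without copper replicate 1 (0.0369) or untreated replicate 4 (0.0198), and gpx-7 without untreated replicate 2 (0.028) or 4 (0.0192). The inducible sod-3, hsp-16.2 and hsp-70 had 12, 10 and 5 counts on copper, against 4, 3 and 1 counts without, too few to test.

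Chaperones of the cytosol, the endoplasmic reticulum and mitochondria gave 0 calls in edgeR, DESeq2 and limma-voom among 12, 15 and 11 genes, with medians of -0.03, 0.18 and -0.04, and of -0.09, -0.18 and -0.30 with offsets. At an unadjusted p under 0.05 the counts were 0, 0 and 2. The endoplasmic reticulum chaperone hsp-4 (BiP) had 21, 31.9, 30.8 and 34 CPM on copper, against 25.2, 24.3, 21.2 and 27.5 CPM without, and the mitochondrial hsp-60 had 291, 141, 166 and 93.7 CPM on copper, against 188, 149, 179 and 269 CPM without. For both genes the groups overlapped. For hsp-6, the mitochondrial HSP70 gene, the fold change was -0.04 ± 0.24.

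Reproductive and growth genes were likewise not called, beside 1.78% of all genes tested. The 6 vitellogenin genes, which encode yolk proteins, had 0 calls in edgeR, DESeq2 and limma-voom and 0 at an unadjusted p under 0.05, with a median of 0.28 and -0.48 after offsets. Of these, vit-2 stood at 5158, 4705, 4480 and 4699 CPM on copper, against 3166, 4820, 5641 and 4061 CPM without (0.11 ± 0.30, adjusted p = 0.838). Of 68 sperm genes edgeR called 0 (26 lower at an unadjusted p under 0.05, 1 lower in DESeq2), with a median of -0.62 and -0.11 after offsets, and 21 lower without untreated replicate 2. The 82 ribosomal protein genes, which are short, all had negative fold changes (median -0.50) and 0 calls (3 lower at an unadjusted p under 0.05, 0 in DESeq2), while the median was -0.05 with offsets. Yolk and sperm transcripts were thus present in both groups.

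Other tissues and processes were read from lists with 0 calls in edgeR's test, beside 1.78% of all genes called. The medians were 0.22 for 34 germline genes (3 higher at an unadjusted p under 0.05), -0.06 for 35 oocyte and eggshell genes (2 higher and 1 lower), -0.05 for 40 muscle genes (5 higher and 12 lower, with DESeq2 calling 1 each way) and 0.66 for 16 basement membrane genes (3 higher and 1 lower, with DESeq2 calling 1 higher). With offsets these 4 medians were -0.04, -0.17, -0.40 and -0.21, so those of the germline and basement membrane lists changed sign. Without offsets they were -0.67 for 61 oxidative phosphorylation genes (29 lower), -0.35 for 70 mitochondrial ribosomal genes (2 higher and 11 lower), -0.24 for 33 proteasome genes (2 lower), -0.04 for 49 autophagy and proton pump genes (3 higher and 7 lower), -0.50 for 34 histone genes (7 lower) and -0.63 for 36 transthyretin-related genes (12 lower). With offsets they were -0.33, -0.05, -0.14, -0.07, -0.20 and -0.12, and 1 autophagy and proton pump gene was called lower. Fatty acid synthesis (19 genes) and the methionine cycle (16 genes) had medians of -0.21 (2 higher and 3 lower) and 0.09 (1 each way), with -0.23 and -0.07 after offsets, where 1 fatty acid synthesis gene was called higher. DESeq2 called 1 oxidative phosphorylation gene, 4 autophagy and proton pump genes and 1 transthyretin-related gene lower, and 1 fatty acid synthesis gene each way, and limma-voom called 0 in all 12 lists. Without untreated replicate 2 edgeR called 10 muscle, 13 oxidative phosphorylation, 7 transthyretin-related, 4 autophagy and proton pump, 2 histone, 2 fatty acid synthesis, 1 methionine cycle and 1 basement membrane gene lower, and 2 muscle genes and 1 germline gene higher. Without untreated replicate 4 it called 3 fatty acid synthesis, 2 methionine cycle, 2 muscle, 1 autophagy and proton pump and 1 basement membrane gene higher, and 3 autophagy and proton pump, 2 histone and 1 transthyretin-related gene lower. Without copper replicate 1 it called 2 autophagy and proton pump, 2 histone, 1 muscle, 1 oxidative phosphorylation and 1 transthyretin-related gene lower. Germline, oocyte and muscle transcripts were present in both groups.

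Neuropeptide genes gave 1 call among 68, 1 lower and 0 higher, near the 1.78% of all genes called. At an unadjusted p under 0.05, 21 were lower and 2 higher. DESeq2 called 8 lower and 1 higher, and limma-voom 0. The list median was -0.80, and -0.37 after offsets. The gene called in edgeR's test, nlp-51, had a fold change of -2.50 ± 0.62 (adjusted p = 0.0458) and -1.82 with offsets (adjusted p = 0.106). Its call was lost without copper replicates 1 to 4 (adjusted p = 0.056, 0.107, 0.0928 and 0.143) and untreated replicates 1 and 3 (0.236 and 0.0587). The count of neuropeptide genes called lower was 4 without copper replicate 1, 16 without untreated replicate 2, 4 without untreated replicate 4, and 0 without any of the others; with offsets 1 was higher and 0 lower.

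The share of genes called differed between chromosomes, which was not tested. Chromosome V held 55 of them, 3.36% of the 1639 genes tested there, chromosome X 2.17% and chromosome IV 2.07%, against 0.837% on chromosome I and 0.95% on chromosome III. Of the 129 fallers, 26 had another faller within 10 kb, 20.2%, beside 3.55% of all tested genes with a faller that near. These groups include lys-4, lys-5 and lys-6 on chromosome IV, nlp-28, nlp-29 and nlp-31 with cyp-34A9 on chromosome V, nhr-55 and nhr-99 on chromosome V, spp-2 and spp-4 on chromosome X, and col-17 and col-73 on chromosome II. Of the 45 risers 2 (4.44%), F01D5.1 and F01D5.5, had another riser within 10 kb, beside 1.08% of all tested genes. Where neighbours are similar in sequence, reads may have been shared between them, which was not tested. In length, the risers had a median transcript of 1519 bp and the fallers of 924 bp, beside 1382 bp for all genes tested, and 989 and 1024.5 bp for the genes called with offsets. By kind, 171 of the 174 were protein-coding and 3 noncoding RNAs.

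The response of many of these genes differed in cua-1(H828Q) worms, tested as an interaction of copper and genotype. Across all genes this difference was called for 527 (5.38%), and 20 of the 24 genes with the largest changes were among them. Those 24 were chosen for their response in control worms, which is 1 side of the difference tested. Their share therefore cannot be read against that of all genes. The fold change of tts-1 on copper was 4.60 in the mutant and -3.34 in control worms (adjusted p of the difference 0.000133). That of asp-12 was 2.35 in the mutant and -2.76 in control worms (1.16e-06), and that of acs-2 was 3.94 in the mutant and -3.23 in control worms (4.58e-05). That of lys-7 was -0.18 in the mutant and 2.28 in control worms (0.00211), and that of mbug-1 was 0.91 in the mutant and 3.30 in control worms (0.00166). For sysm-1, clec-45, F01D5.5 and F01D5.1 the mutant's fold changes were 3.19, 7.23, 1.23 and 1.54, and the difference was not called (adjusted p = 0.119, 0.132, 0.0792 and 0.359). One copper-treated mutant library was also poor in long transcripts, and without all 5 such libraries the difference was called for 1191 genes.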

How the data were processed

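Whole worms were profiled by 3′ digital mRNA sequencing, in which reads come from the 3′ end of transcripts. The build was ce11 and the tools were HTSeq, STAR 2.6.0a and bcl2fastq, per the submitters' processing notes. The deposited values are raw counts per gene, and every column was matched to a sample by its name. The annotation release and strand setting are not given in the sources used here, so overlapping, antisense and near-identical genes are uncertain.

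Of 46904 genes, 9787 passed edgeR's filter on low counts, and 99.6 to 99.8% of each control library lay in them. The counts were tested with edgeR 4.0.16 (TMM, 1 mean per group over 16 libraries, robust quasi-likelihood test with 12 residual degrees of freedom) in R 4.3.3, with Benjamini-Hochberg adjustment. Alternatives included limma-voom 3.58.1, DESeq2 1.42.0, length offsets (lowess, span 0.3), a length covariate and leaving out each library. The scripts were tested on simulated data. Symbols came from RefSeq (45785 genes matched), and positions and longest transcript lengths from the Ensembl annotation of WBcel235, the assembly of ce11 (42438 genes). Genes were named by size of change with no overlap, by adjusted p within lists, by transcript length, and as fixed copper and stress genes; 14 more are said to be chosen after their values were seen. The members and the 35 lists were chosen with earlier results of these data known.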

Additional observations from a re-analysis of the deposited data

Results flagged for a closer look

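Among 198 pairs of a group and a named gene, 18 held a library far from the other 3 of its group by Dixon's criterion, which chance meets in about 1 in 20 groups. Of these, 7 were in copper-treated libraries, 5 of them in replicate 1, and 11 in untreated libraries. Copper replicate 1 stood apart for dhc-1 (13.2 CPM, low), enpl-1 (292 CPM, low), mtl-2 (57.7 CPM, high), ret-1 (627 CPM, high) and rpl-41.2 (13770 CPM, high), copper replicate 2 for ckb-2 (9.999 CPM, low) and copper replicate 3 for nhr-31 (18.3 CPM, high). The length balance of copper replicate 1 (-0.87) was also far below those of the other copper-treated libraries.

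Untreated replicate 1 stood apart for clec-45 (2.75 CPM, high), nlp-51 (15.1 CPM, high), gcs-1 (3.67 CPM, low) and vit-5 (1340 CPM, low). Untreated replicate 2 stood apart for cest-10 (0.934 CPM, high), cls-3 (1.56 CPM, high), dhc-1 (74.1 CPM, high), msp-45 (34.9 CPM, low), spp-1 (69.5 CPM, low) and ssp-37 (17.8 CPM, low), and untreated replicate 4 for nhr-31 (10.7 CPM, high). For clec-45, cest-10 and cls-3 the rest of the untreated group had 0 CPM, so any value above 0 met the criterion. The chance rate given above does not apply to such groups.

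For 20 of the 24 genes with the largest changes the copper response differed between cua-1(H828Q) and control worms, by edgeR's interaction test. The mutant's log2 fold change was lower than the control's by the following signed differences: AC3.5 -4.75, C14C6.5 -1.92, C41A3.2 -4.96, cest-10 -5.13, mbug-1 -2.39, Y105C5B.15 -2.42, cls-3 -4.44 and oac-20 -3.33. It was higher by 8.42 for E01G4.6, 6.85 for dbd-20, 7.24 for col-14, 6.76 for col-17, 7.04 for col-60, 6.99 for col-73, 6.73 for dpy-13, 6.16 for rol-8, 6.64 for adh-1, 3.88 for spp-2, 5.40 for sqt-3 and 7.93 for tts-1. These genes were chosen for their response in the control worms.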

How the results depend on the processing

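The 174 calls (45 higher, 129 lower) stayed within 1.5 times under DESeq2's size factors (171), upper-quartile factors (182), no filter on low counts (163), a stricter filter (161) and length offsets (189). They became 440 (133 higher, 307 lower) with DESeq2, 44 (19 and 25) with limma-voom, 13 (9 and 4) in the 8 control libraries alone, 109 (48 and 61) with a length covariate, 468 (232 and 236) without the libraries poor in long transcripts, and 40 (14 and 26) at an adjusted p under 0.01. With the replicate block they were 64 (21 and 43), and with offsets and the replicate block 98 (38 and 60). Same-numbered copper and untreated libraries deviated together with correlations of 0.47, 0.37, -0.18 and 0.08, so the numbers were not taken to pair them, and 2 of 4 copper-treated libraries correlated best with their own number. Leaving out 1 control library gave 44 to 884 calls (20 to 315 higher, 24 to 569 lower) and a length balance difference of 0.859 to 1.79. The difference between genotypes was called for 527 genes, and for 1191 without the libraries poor in long transcripts. Of 62 called genes named, 51 lost the call in at least 1 setting and 1 changed sign. The cause was not tested.

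Values of opposite sign to those reported, mostly near 0, were as follows. With offsets, a length covariate, and offsets with the block, they were -0.42, -0.42 and -0.45 for eel-1, -0.72, -0.24 and -0.74 for frm-1, -0.10, -0.066 and -0.070 for hsp-4, -0.66, -0.24 and -0.70 for vit-2, -0.39, -0.13 and -0.41 for vit-3, -0.30, -0.089 and -0.33 for vit-4, and -0.51, -0.27 and -0.54 for vit-5. For ret-1 they were -0.95 with offsets, -1.03 with offsets and the block, and -0.0032 with upper-quartile factors. With the covariate alone they were 0.13 for hsp-6, 0.10 for hsp-60, 0.11 for sod-1 and 0.013 for unc-44. Without the libraries poor in long transcripts they were 1.11 for gst-4, 0.055 for hsp-6, 0.0019 for spp-1, 0.81 for ttm-1, 0.35 for unc-44 and -0.099 for vit-2, and within those libraries alone -0.22 for hsp-4, 0.30 for hsp-6, 0.48 for hsp-60 and 0.069 for sod-1. DESeq2's size factors, no filter and DESeq2 gave 0.00050, 0.035 and 0.00047 for hsp-6 and 0.049, 0.082 and 0.055 for unc-44. For unc-44, limma-voom gave 0.023, the 8 libraries alone 0.042 and the block 0.0065. Leaving out 1 library gave ranges that crossed 0: -0.75 to 0.41 for gst-4, -0.21 to 0.12 for hsp-6, -0.56 to 0.023 for hsp-60, -0.073 to 0.13 for ret-1, -0.11 to 0.11 for unc-44 and -0.024 to 0.25 for vit-2.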
